A study of Mus musculus with 2 samples.

Results

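The genes described here are 37 genes used to recognise macrophages and microglia, followed in bulk RNA from the mouse RPE-choroid (RPE, retinal pigment epithelium), that is the pigmented cells behind the retina with the vascular coat they rest on. They were chosen by name, as lineage, scavenger receptor, Fc receptor, lectin and signalling genes of these cells. The choice was made with earlier results of these data known. The count table has 23420 gene rows, and 36 of the 37 names have one. Spi1, which encodes the lineage transcription factor PU.1, is not listed under that name; its older symbol Sfpi1 is, and is given apart from the members. Marco, a scavenger receptor gene, had 0 counts in all 6 libraries, so 35 members were tested.

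The mice were 11 to 13 months old and untreated. One group has the strain label B6.129-AhRtm1Bra/J and the genotype AhR -/-, in which the gene of the aryl hydrocarbon receptor (Ahr) carries a targeted allele in all cells of the animal. The other is C57BL6/J with the genotype AhR +/+. Each group holds 3 animals, and each library is 1 animal, with tissue of 2 eyes pooled. The labels do not name littermates, so strain and genotype cannot be told apart. The comparison asks how transcripts of this tissue differ between the AhR genotypes.

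Macrophages live in the choroid along its vessels, and microglia, their relatives of the nervous system, live in the retina and can reach the space beneath it. Both depend on the receptor Csf1r and its ligands Csf1 and Il34. They bind antibody-coated particles through Fc receptors, microbial products through Toll-like receptors, and lipids and dying cells through scavenger receptors and Trem2. Several members are also made elsewhere: Lgals3 by surface epithelia, Stab1 by some endothelium, Tmem119 by matrix-forming cells, Pf4 by platelets, and Csf1 and Spp1 by many cell types. Hexdc encodes a hexosaminidase that is not restricted to myeloid cells. In bulk RNA, a change in the number of cells and a change in RNA per cell cannot be told apart.

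Library totals over all genes ran from 18058725 to 28692624 counts. Below, values of 3 libraries follow the order of animals 1, 2 and 3, knockout-labelled before wild type. Ahr was counted at 41.4, 45.4 and 40.6 CPM (counts scaled to the size of the library) in the AhR -/- libraries and at 19.7, 20.2 and 26.0 CPM in AhR +/+ libraries. A count over the whole gene does not show whether the targeted part is missing, and these values give no sign of a lost transcript, so the libraries are called knockout-labelled and every direction rests on the labels. Animal 1 of each group had Xist counts of female level (19592 and 22457, against 20 to 98 in the others). Some libraries stood apart in markers of other tissues. The summed CPM of 9 cornea and conjunctiva markers, from outside the dissected tissue, was 3677, 15330 and 11910 in the knockout-labelled against 6268, 2593 and 3010 in the wild-type libraries. Erythroid markers summed to 1062 CPM in knockout-labelled animal 1 and to between 4.29 and 77.1 CPM in the other libraries. Photoreceptor markers summed to 13080, 11890 and 11620 CPM against 8097, 9091 and 17460 CPM. Skeletal muscle markers summed to 1034, 2250 and 897 CPM against 532, 777 and 1687 CPM. The RPE gene Rpe65 stood between 1326 and 2987 CPM.

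All 35 tested members were read together first. Of them, 23 had a higher estimate in the knockout-labelled group and 12 a lower one. Their median log2 fold change was 0.10, beside 0.01 over all 15796 genes tested, of which 51.2% were higher. At a Benjamini-Hochberg adjusted p under 0.05, over all genes, edgeR's quasi-likelihood test called 8 genes (0.0506%) and 0 members. At an unadjusted p under 0.05, 7 members (20%) were higher, beside 7.55% of all genes, and 2 members (5.71%) were lower, beside 6.62%. The 3 animals of each group did not overlap for 7 members that were higher (20%) and 2 that were lower (5.71%), beside 10.03% and 9.96% of all genes. Among the 7 was Timd4, which passed the low-count filter only through the knockout-labelled libraries. The share on the higher side was thus above the background, and that on the lower side was near it. Since the members share cells, animals and libraries, these shares are a description and not a test of the list. The list was also chosen with earlier results of these data known, so its distance from the background supports no conclusion.

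The higher members at an unadjusted p under 0.05 were the galectin gene Lgals3, the inhibitory Fc receptor gene Fcgr2b, the leukocyte tetraspanin gene Cd53, the Toll-like receptor genes Tlr2 and Tlr4, the transglutaminase gene F13a1 and the endosomal glycoprotein gene Cd68. The lower members were Tmem119, a membrane protein gene used to mark microglia, and Stab1, a scavenger receptor gene of macrophages and sinus-lining endothelium. All 9 kept their sign in all 17 alternatives computed. These refit the same counts from which the 9 were picked, so the kept sign is no independent support. For 7 of the 9 every animal of one group lay above every animal of the other, the exceptions being Cd68 and F13a1. In GRCm38 (GENCODE M21), Lgals3 lies on the plus strand of chromosome 14 at 47367751 to 47386160, and Tmem119 on the minus strand of chromosome 5 at 113793729 to 113800516.

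**Figure D1:**
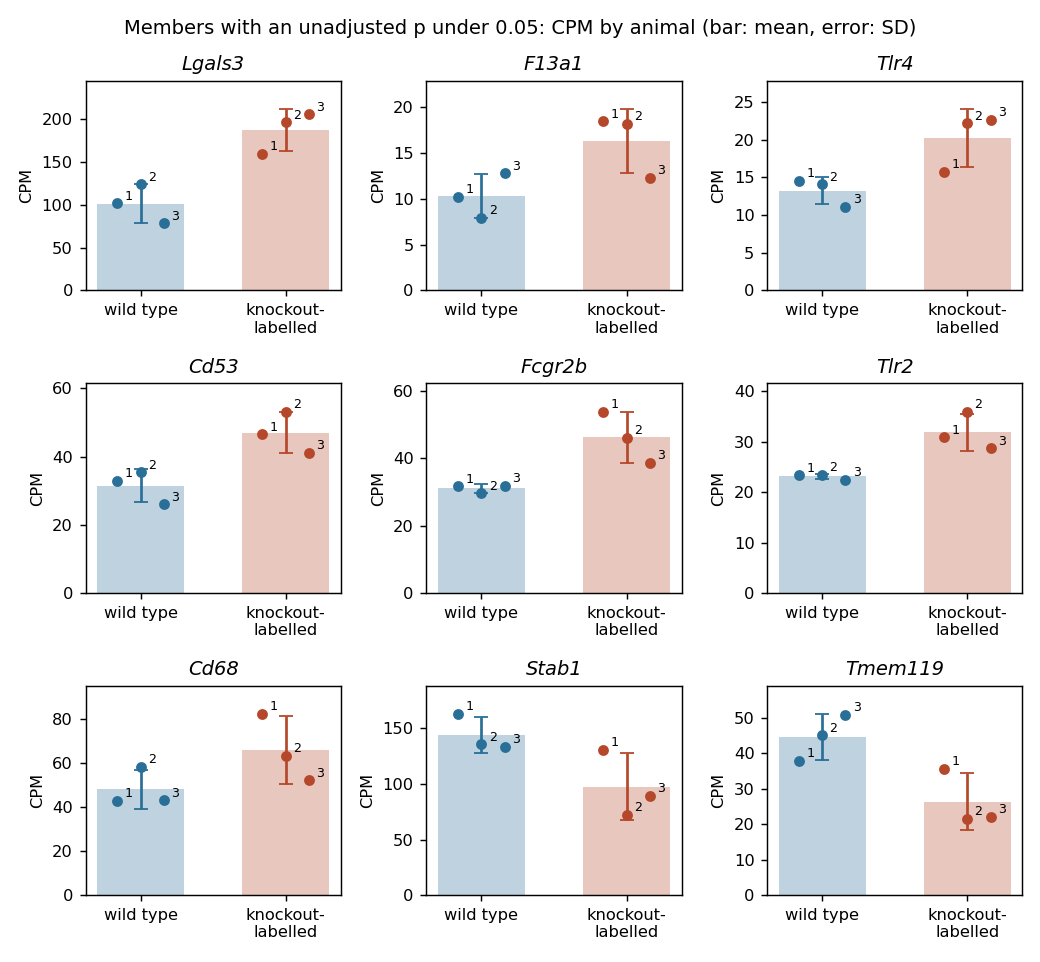
CPM (vertical axes, from 0) of the 9 members with an unadjusted p under 0.05 in wild-type and knockout-labelled animals, with points numbered by animal, bars at the group mean and error bars of 1 SD (n = 3 each). Lgals3 lies between 78.3 and 123.7 CPM in the wild type and between 159.1 and 205.3 CPM in the knockout-labelled animals, whereas Cd68 and F13a1 overlap between the groups.

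By level per length of exon, Lyz2, the macrophage lysozyme gene, came first at 1304 CPM per kb. Spp1 (249.5 CPM per kb), the secreted phosphoprotein osteopontin, and Tyrobp (233 CPM per kb), the signalling adaptor of Trem2, followed, and the ranges of these 2 overlapped over the 6 libraries. Next came Fcer1g at 100.2, Lgals3 at 90.6, Trem2 at 54.4, Csf1r at 50.3 and Cd68 at 45.3 CPM per kb. At the low end stood Siglec1 at 1.81, Cd163 at 0.991 and Timd4 at 0.233 CPM per kb. In CPM not divided by length, 25 of the 35 tested members had a mean of at least 10 and 10 had less. Marco at 0 counts allows a level of up to 0.104 to 0.165 CPM, depending on the library, a limit that covers counting error only.

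**Figure D2:**
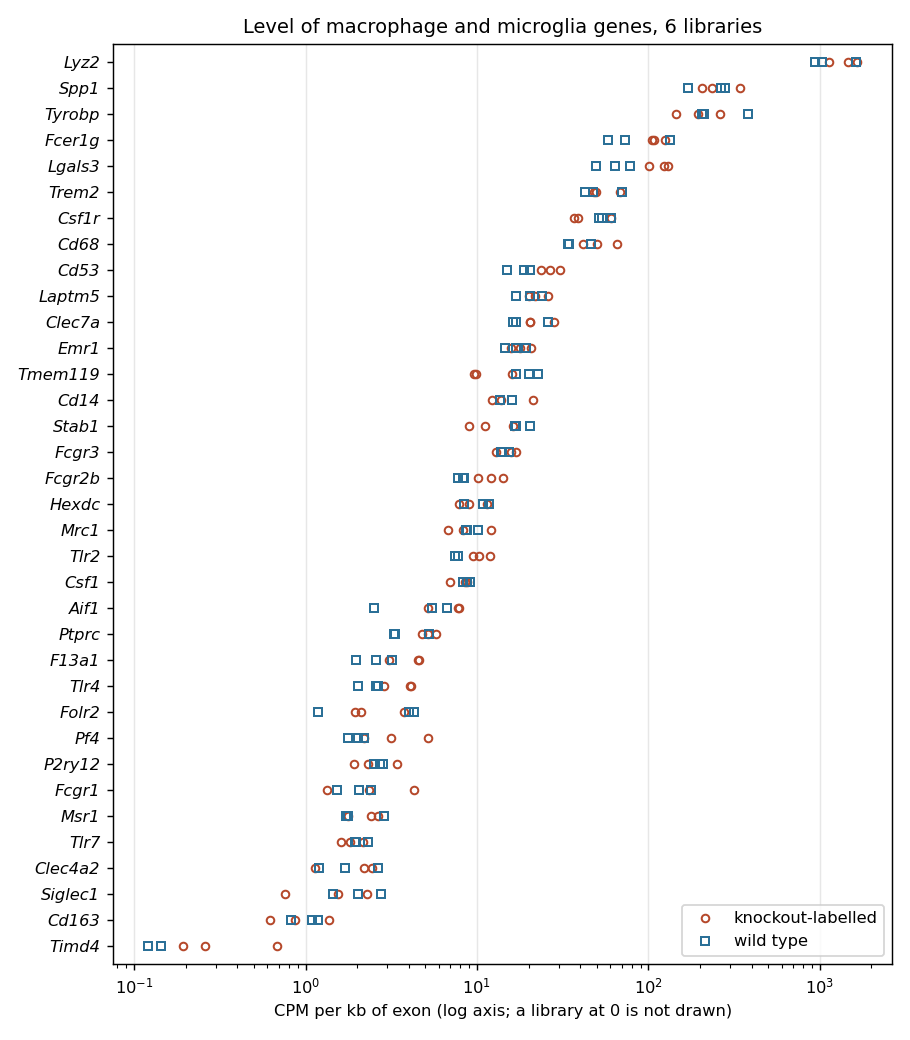
Level of each member in the 6 libraries (horizontal log axis, CPM per kb of exon), ordered by mean, with circles for knockout-labelled and squares for wild-type animals. Lyz2 stands at the top at 1304 and Timd4 at the bottom at 0.233 CPM per kb; a library at 0 is not drawn.

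The 5 tested lineage genes, of general myeloid and leukocyte identity, all had positive estimates. Of them, 1 was higher without overlap, beside 10.03% of all genes. Emr1, which encodes F4/80, the surface protein most used to stain mouse macrophages, had 67.2, 57.6 and 50.9 CPM against 62.5, 54.7 and 47.0 CPM. The groups overlapped, and the log2 fold change was 0.10 (SE 0.15, edgeR adjusted p = 0.822). Cd53, a tetraspanin of all leukocytes, had 46.5, 53.2 and 41.1 CPM against 32.9, 35.4 and 26.1 CPM. Every knockout-labelled library lay above every wild-type library, and the log2 fold change was 0.58 (SE 0.17, edgeR adjusted p = 0.200). Ptprc, which encodes CD45, the phosphatase carried by all white blood cells, ran from 24.6 to 29.5 CPM against 16.8 to 26.7 CPM (log2 fold change 0.41). Laptm5, a lysosomal protein gene of blood cells, and Aif1, the gene of the Iba1 protein, had log2 fold changes of 0.16 and 0.51 with overlapping groups. Sfpi1 had 7.50, 4.88 and 6.73 CPM against 5.94, 7.35 and 4.49 CPM, and its log2 fold change was 0.11 (SE 0.31, edgeR adjusted p = 0.914).

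Cd53 and Ptprc are carried by leukocytes of every kind, so the levels of other leukocyte markers are set beside them. The summed level of 9 neutrophil markers with a row was 124, 57.7 and 80.5 CPM against 11.8, 7.52 and 6.01 CPM. In the knockout-labelled libraries most of it was Ltf, a granule and mucosal secretion gene, at 88.0, 46.0 and 62.2 CPM against 6.62, 1.82 and 3.25 CPM (log2 fold change 4.07, SE 0.44, edgeR adjusted p = 0.0389), the 1 marker of the list that was called. S100a8 and S100a9, which encode the subunits of calprotectin in neutrophils and other myeloid cells, were higher without overlap, at 9.84, 2.96 and 4.07 CPM against 0.414, 1.12 and 0.864 CPM and at 15.4, 7.08 and 9.51 CPM against 2.63, 0.868 and 0.380 CPM. Cxcr2, a chemokine receptor of neutrophils, had 48, 19 and 9 counts against 0 in each wild-type library. Camp and Retnlg overlapped between the groups. The granule genes Ngp, Elane and Mpo were at 0 counts in every library, and Ly6g has no row. T and NK cell markers (8 genes) summed to between 9.71 and 19.1 CPM against 4.49 to 10.1 CPM, and 5 B cell markers to between 7.57 and 13.7 CPM against 4.85 to 9.16 CPM. Mast cell markers overlapped between the groups (71.9 to 101 against 64.5 to 86.4 CPM). The part of these cells in the values of Cd53, Ptprc, Fcgr2b, Tlr2, Tlr4 and F13a1 was not tested.

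In the Csf1 axis, Csf1r, the receptor kinase on which macrophages and microglia depend, had 295, 181 and 190.3 CPM against 262, 294 and 252 CPM. Knockout-labelled animal 1 was the highest of all 6 libraries and animals 2 and 3 were the lowest, so the groups overlapped (log2 fold change -0.28, SE 0.20, edgeR adjusted p = 0.560). Without knockout-labelled animal 1 the log2 fold change was -0.54 (edgeR adjusted p = 0.0538). Its exons share 873 of 4885 bases with Hmgxb3 on the opposite strand, and with no stated strand setting reads of the 2 genes cannot be told apart there. Csf1, one of its ligands, ran from 33.0 to 41.4 CPM against 39.3 to 42.9 CPM, with a log2 fold change of -0.11 and the smallest SE of the members (0.14).

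The other ligand of Csf1r, Il34, made by epithelia and neurons, had 13.2, 5.38 and 8.98 CPM against 15.2, 14.1 and 16.7 CPM. Its groups did not overlap, and its log2 fold change was -0.73 (SE 0.31, edgeR adjusted p = 0.332). Among 15 other tested genes of the axis, 10 had positive and 5 negative estimates (median 0.09). Il34 was the 1 gene of these at an unadjusted p under 0.05, beside 6.62% of all genes lower and 7.55% higher.

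Among the scavenger receptors, which bind modified lipoproteins, glycoproteins and dying cells, 3 of 7 tested members had positive and 4 negative estimates. Stab1 had 130.4, 72.3 and 89.4 CPM (97.3 ± 29.9, SD, n = 3) against 162, 135 and 133 CPM (144 ± 16.4, SD, n = 3). All knockout-labelled libraries were below all wild-type libraries, animal 1 by little, and the log2 fold change was -0.56 (SE 0.21, edgeR adjusted p = 0.280). Without knockout-labelled animal 1 it was called at -0.83 (edgeR adjusted p = 0.0258), in a fit that called 795 of 16064 genes. Endothelial markers (10 genes) summed to 832, 698 and 594 CPM against 903, 898 and 932 CPM, also lower without overlap. Of the single markers, Tie1, Esam, Cldn5, Egfl7 and Erg were lower without overlap. The groups overlapped for Pecam1 (log2 fold change -0.03), Cdh5, Kdr, Tek and Emcn, the last with a positive estimate (0.18). The part of endothelium in the Stab1 values was not tested. Of the exon bases of Stab1, 112 of 7999 overlap Nt5dc2 on the opposite strand.

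Cd68, a glycoprotein of endosomes and lysosomes that fills phagocytes, had 82.2, 63.4 and 52.1 CPM against 42.8, 58.3 and 43.1 CPM. Wild-type animal 2 lay above knockout-labelled animal 3, and the log2 fold change was 0.45 (SE 0.19, edgeR adjusted p = 0.338). It was 0.26 without knockout-labelled animal 1 (edgeR adjusted p = 0.422) and 0.77 with the cornea markers as a term (edgeR adjusted p = 0.242). Mrc1, the mannose receptor of tissue macrophages, ran from 36.3 to 65.3 CPM against 46.5 to 54.2 CPM, with a log2 fold change of -0.02. Cd163, the haemoglobin scavenger receptor, Folr2, a folate receptor of resident macrophages, and Msr1, which takes up modified lipoproteins, had mean levels under 10 CPM and log2 fold changes of -0.12, -0.29 and 0.09 with overlapping groups.

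Timd4, a receptor for phosphatidylserine on dying cells, had 10, 27 and 14 counts in knockout-labelled animals 1 to 3 and 7, 0 and 9 counts in wild-type animals 1 to 3. In CPM the groups did not overlap, at 0.419, 1.48 and 0.564 against 0.263, 0 and 0.311. Timd4 passed the low-count filter only through the 3 knockout-labelled libraries. The lack of overlap was therefore fixed by that filter and is no result. With so few counts the estimate was wide (log2 fold change 2.04, SE 1.23, edgeR adjusted p = 0.489).

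Of the Fc receptor genes, whose products bind or signal from antibody, all 4 had positive estimates (median 0.38). Fcer1g, the signalling chain that activating Fc receptors share, had 80.2, 78.2 and 93.6 CPM against 43.6, 99.6 and 54.7 CPM. Wild-type animal 2 was the highest library, and the log2 fold change was 0.35 (SE 0.27, edgeR adjusted p = 0.595). Fcgr2b, the inhibitory receptor for immunoglobulin G, had 53.9, 46.2 and 38.8 CPM (46.3 ± 7.58, SD, n = 3) against 31.7, 29.7 and 31.9 CPM (31.1 ± 1.24, SD, n = 3). The groups did not overlap and the log2 fold change was 0.57 (SE 0.15, edgeR adjusted p = 0.185). Fcgr3, an activating receptor of similar sequence at the same cluster, ran from 17.4 to 22.8 CPM against 18.5 to 20.7 CPM (log2 fold change 0.08). Alignments tallied as not unique enter no gene, and any loss from these genes was not measured. Fcgr1, the high-affinity receptor, spread from 3.46 to 11.1 CPM within the knockout-labelled group alone (log2 fold change 0.41).

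Among the lectins, Lgals3, which encodes galectin 3, a sugar-binding protein of activated macrophages and of epithelia, had the smallest adjusted p of the tested members. Its level was 159.1, 195.8 and 205 CPM (187 ± 24.4, SD, n = 3) against 101.4, 123.7 and 78.3 CPM (101.1 ± 22.7, SD, n = 3). The lowest knockout-labelled library lay above the highest wild-type library, and the log2 fold change was 0.88 (SE 0.18, edgeR adjusted p = 0.128). It passed an adjusted p under 0.05 with DESeq2 (adjusted p = 0.00116), which called 493 of 15796 genes. It also passed with the edgeR exact test (adjusted p = 0.00471), which called 352 of 15796 genes. Without knockout-labelled animal 1, the quasi-likelihood test called it as well (edgeR adjusted p = 0.0262), among 795 of 16064 genes. In the authors' deposited table Lgals3 is the 1 member with an FDR under 0.05 (log2 fold change 0.90, FDR 0.00518), among 392 of 16561 genes (2.37%).

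Since epithelia make galectin 3, the cornea and conjunctiva sums stand beside it: 3677, 15330 and 11910 CPM against 6268, 2593 and 3010 CPM. Knockout-labelled animals 2 and 3 had the most of these markers and also the most Lgals3, while animal 1 of that group had more Lgals3 than wild-type animal 1 with less of the markers. With the cornea markers as a term in the fit, the log2 fold change of Lgals3 was 0.78 (edgeR adjusted p = 0.376). The part of these epithelia in the Lgals3 values was not tested. The other lectins had overlapping groups. Clec7a, the beta-glucan receptor Dectin-1, ran from 46.5 to 64.6 CPM against 37.2 to 59.7 CPM (log2 fold change 0.22). Siglec1, the sialic acid receptor of lymph node and perivascular macrophages, had 16.4, 5.43 and 11.1 CPM against 19.7, 14.5 and 10.3 CPM (log2 fold change -0.43), and Clec4a2, a C-type lectin gene of myeloid cells, averaged 5.05 against 4.83 CPM (log2 fold change 0.06).

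Pattern recognition receptors sense microbial products, and 2 of the 4 genes were higher without overlap, beside 10.03% of all genes. Tlr2, which binds bacterial lipoproteins, had 30.9, 36.0 and 28.7 CPM against 23.3, 23.5 and 22.5 CPM. The wild-type libraries were close to each other (SD 0.524 CPM), and the log2 fold change was 0.46 (SE 0.15, edgeR adjusted p = 0.237). Tlr4, the receptor for endotoxin, had 15.8, 22.2 and 22.6 CPM against 14.5, 14.1 and 11.1 CPM. Knockout-labelled animal 1 was close to the wild type and the other 2 were above it, and the log2 fold change was 0.61 (SE 0.21, edgeR adjusted p = 0.258). With the cornea markers as a term, Tlr4 went to 0.32 (edgeR adjusted p = 0.809).

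Cd14, the co-receptor that hands endotoxin to Tlr4, ran from 20.0 to 34.9 CPM against 22.3 to 26.4 CPM (log2 fold change 0.05). Tlr7, an endosomal sensor of single-stranded RNA, ran from 6.42 to 8.62 CPM against 7.73 to 9.14 CPM (log2 fold change -0.15). Among 28 other genes of Toll-like receptor signalling, 19 had positive and 9 negative estimates (median 0.12). At an unadjusted p under 0.05, 3 were higher and 0 lower, beside 7.55% and 6.62% of all genes. The 3 were Tlr3, a sensor of double-stranded RNA (log2 fold change 0.49, SE 0.13, edgeR adjusted p = 0.178), Ly86 (0.60), the partner of a Toll-like receptor homologue, and Tlr1 (0.70), which pairs with Tlr2. All 3 had groups without overlap.

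Trem2, the lipid receptor of microglia and other phagocytes, ran from 54.7 to 78.1 CPM against 48.8 to 80.6 CPM, with a log2 fold change of 0.05. Tyrobp, the adaptor through which Trem2 signals, had 146.5, 81.2 and 109.6 CPM against 119.4, 215 and 116 CPM. Wild-type animal 2 was the highest library for both genes, and the groups overlapped (Tyrobp log2 fold change -0.42, SE 0.28, edgeR adjusted p = 0.532). Of 20 other genes that signal from such adaptors, 13 had positive and 7 negative estimates (median 0.19). At an unadjusted p under 0.05, 4 were higher and 0 lower, beside 7.55% and 6.62% of all genes. Of the 4, those with the smallest p were Malt1, a scaffold protease (log2 fold change 0.71, SE 0.19, edgeR adjusted p = 0.185), Lyn, a Src-family kinase (0.57), and Blnk, a linker protein that B cells also use (0.84).

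The 4 members with secreted products all had positive estimates (median 0.45). Lyz2 had 1492, 2167 and 1916 CPM against 1363, 2126 and 1231 CPM. Animal 2 was the highest in both groups, the groups overlapped, and the log2 fold change was 0.24 (SE 0.23, edgeR adjusted p = 0.685). Its closely similar neighbour Lyz1 was counted at 5.45 to 21.4 CPM over the 6 libraries, and alignments tallied as not unique enter neither gene. F13a1, the A chain of coagulation factor XIII and a marker of resident and perivascular macrophages, had 18.5, 18.2 and 12.3 CPM against 10.3, 7.93 and 12.8 CPM.

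Knockout-labelled animal 3 lay just below wild-type animal 3 for F13a1, whose log2 fold change was 0.66 (SE 0.25, edgeR adjusted p = 0.303). Pf4, a chemokine of platelets and of some tissue macrophages, had 3.60, 1.54 and 2.22 CPM against 1.24, 1.53 and 1.42 CPM. Knockout-labelled animal 2 cleared wild-type animal 2 by little, and the log2 fold change was 0.81 (SE 0.56, edgeR adjusted p = 0.550). Knockout-labelled animal 1, the highest for Pf4, was also the library with 1062 CPM of erythroid markers. Those markers summed to 55.7 and 77.1 CPM in animals 2 and 3 and to between 4.29 and 33.65 CPM in the wild type. Without knockout-labelled animal 1 the log2 fold change of Pf4 was 0.43. The part of blood cells in the Pf4 values was not tested. Spp1 ran from 337 to 564 CPM against 282 to 459.6 CPM (log2 fold change 0.13).

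Of the genes used to mark microglia, Tmem119 had 35.7, 21.5 and 22.0 CPM (26.4 ± 8.03, SD, n = 3) against 37.9, 45.0 and 50.7 CPM (44.6 ± 6.42, SD, n = 3). Knockout-labelled animal 1 lay near the lowest wild-type library and animals 2 and 3 were below it. The log2 fold change was -0.75 (SE 0.22, edgeR adjusted p = 0.206). Tmem119 was called without knockout-labelled animal 1 (-1.04, edgeR adjusted p = 0.0225), in a fit that called 795 of 16064 genes. Its log2 fold change was -0.37 with the cornea markers as a term (edgeR adjusted p = 0.665). In the authors' deposited table its log2 fold change is -0.74 with an FDR of 0.0577. P2ry12, the purine receptor of resting microglia, ran from 4.67 to 8.40 CPM against 6.12 to 6.91 CPM (log2 fold change -0.08).

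Matrix-forming cells also express Tmem119, and 5 fibroblast markers summed to 8056, 8305 and 7787 CPM against 9178, 8973 and 10940 CPM, again lower without overlap. Most of each sum was Dcn (5561 to 7141 CPM), whose groups overlapped, as did those of Pdgfra (log2 fold change -0.11) and Lum (0.33). Col1a1 (-1.17) and Col1a2 (-0.65) were lower without overlap. The part of matrix-forming cells in the Tmem119 values was not tested. Of 9 other tested genes used for microglia, 7 had positive and 2 negative estimates (median 0.22). Among those at an unadjusted p under 0.05 were Itgam, the integrin chain CD11b of myeloid cells (log2 fold change 1.00, SE 0.28, edgeR adjusted p = 0.191) and Olfml3, a secreted matrix protein (-0.55). Genes used as microglial markers thus lay on both sides of 0. The enzyme gene Hexdc had 29.3, 20.1 and 22.8 CPM against 21.4, 27.5 and 29.7 CPM (log2 fold change -0.12, SE 0.20, edgeR adjusted p = 0.828). Its exons overlap those of Ogfod3 and Cybc1.

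**Figure D3:**
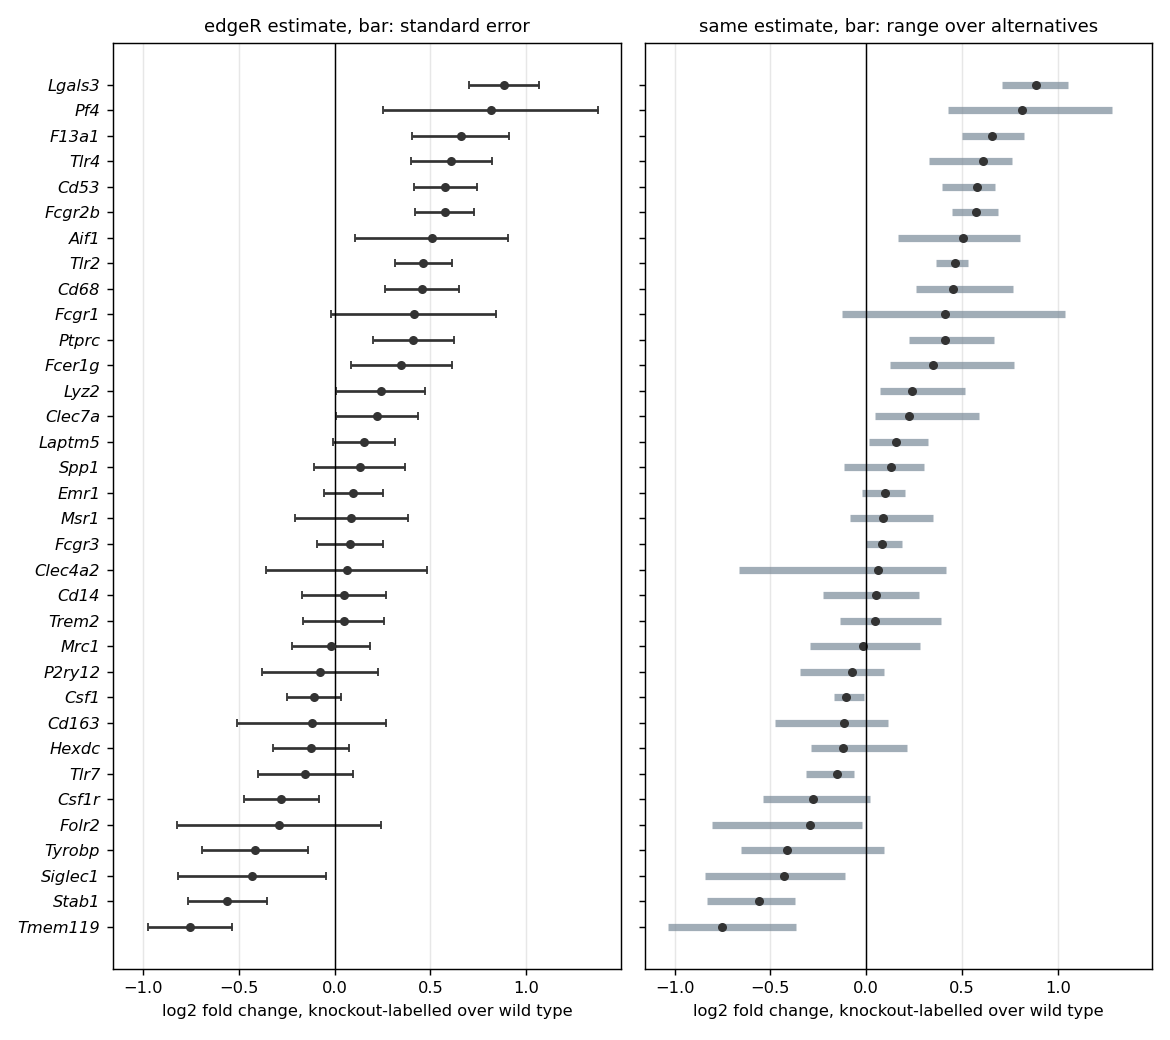
Log2 fold change (horizontal axis, knockout-labelled over wild type) of the tested members other than Timd4: on the left the edgeR estimate with its SE, on the right the same estimate with the range over the 17 alternatives. Lgals3 stands at 0.88 and Tmem119 at -0.75, and the ranges of both stay on 1 side of 0, whereas 14 of the 35 tested members have a range that crosses 0.

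Other macrophage states were read from 3 lists of non-members. Over all genes, 7.55% were higher and 6.62% lower at an unadjusted p under 0.05. Of 23 tested genes of resident macrophages, 20 had positive and 3 negative estimates (median 0.23), and Cbr2, a carbonyl reductase, was the 1 at an unadjusted p under 0.05. It had 437, 524 and 399 CPM against 214, 89.7 and 102 CPM (log2 fold change 1.74, SE 0.31, edgeR adjusted p = 0.118), and airway epithelium is known to express it too. Of 8 monocyte genes, 6 had positive and 2 negative estimates (median 0.56). Klf2, a transcription factor that endothelium also expresses, was lower (log2 fold change -0.98, SE 0.19, edgeR adjusted p = 0.128), and Ccr2, the receptor of recruited monocytes (0.93), and Itgal, a leukocyte integrin chain (0.70), were higher. Of 11 genes of lipid-handling macrophages, 9 had positive and 2 negative estimates (median 0.23). Cst7, a cystatin, had 7.08, 2.14 and 2.22 CPM against 0.113, 0.413 and 0.104 CPM, Fabp5, a fatty acid carrier of macrophages and epithelia, had a log2 fold change of 0.68, and Lpl, lipoprotein lipase, 0.53. The edgeR test called 0 of the non-members of these 3 lists and of the Csf1 axis, adaptor, Toll-like receptor and microglia lists at an adjusted p under 0.05.

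**Figure D4:**
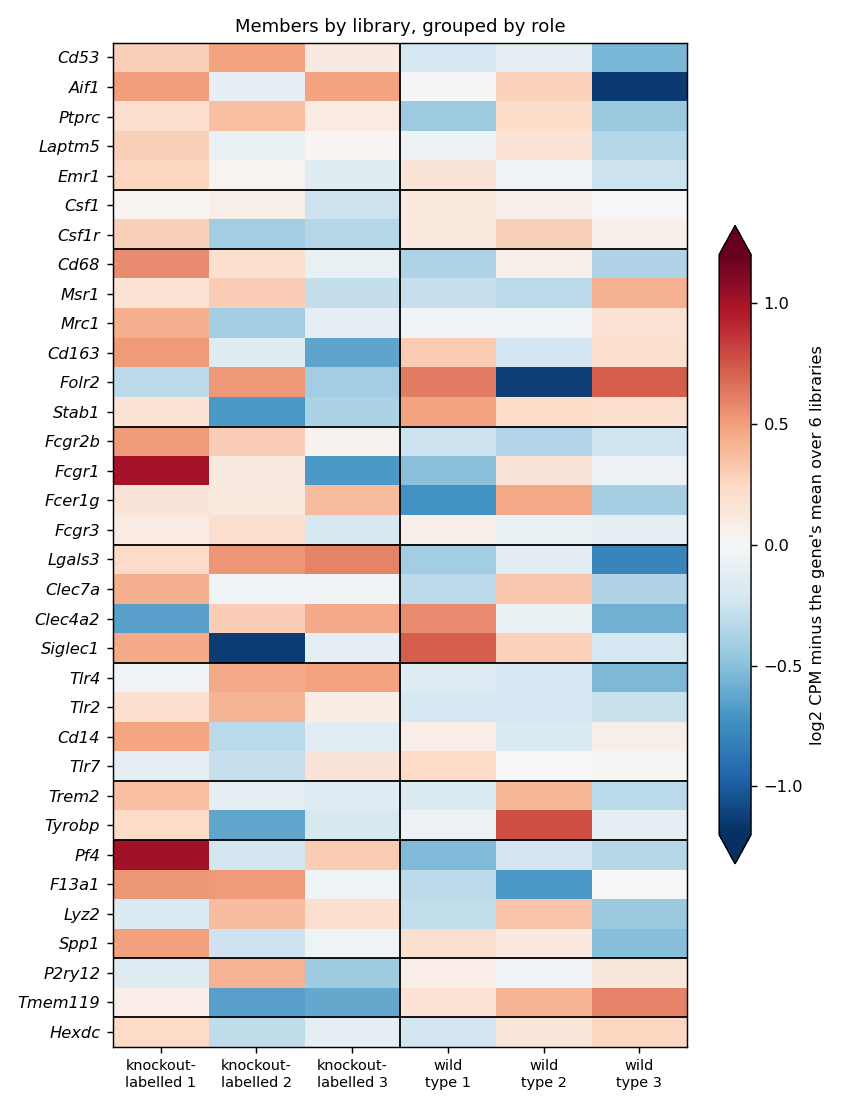
Log2 CPM of each member minus its mean over the 6 libraries (colour scale), with members in rows grouped by role and libraries in columns, knockout-labelled on the left; Timd4 and Marco are not drawn. Knockout-labelled animal 1 holds the highest value of 14 of the 35 tested members and wild-type animal 3 the lowest of 12.

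The members differed between animals within a group as well. Knockout-labelled animal 1 had the highest level of 14 of the 35 tested members, beside 16.1% of all genes tested, and the lowest of 1. Wild-type animal 3 had the lowest level of 12 members, beside 15.1% of all genes. The median deviation of members from their own mean was 0.26 (log2) in knockout-labelled animal 1, 0.07 in animal 2 and -0.09 in animal 3, and it was -0.07, -0.01 and -0.21 in wild-type animals 1 to 3. Animals 2 and 3 of the knockout-labelled group lay between those extremes, as did wild-type animals 1 and 2. Among the members with knockout-labelled animal 1 on top were Emr1, Laptm5, Csf1r, Cd68, Mrc1 and Fcgr1. Lgals3, Tlr4, Cd53 and Tlr2 were highest in animal 2 or 3 of that group.

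Promoters were searched for letters that bear on this lineage and on the targeted receptor. RefSeq windows (GRCm38.p6, 250 bases before to 50 after the start) matched 27 of 36 members, with 34 windows. The letters TNGCGTG, the core that the aryl hydrocarbon receptor binds with its partner Arnt, were in the windows of 0 of 27 members, beside 5.84% of all genes, on both strands. GAGGAA, a core bound by PU.1, was in those of 15 members (55.6%), beside 31.3% of all genes. A match is a description of letters. Of the 9 members with an unadjusted p under 0.05, 7 had a window and 4 had GAGGAA before the start. They are shown 5′ to 3′ on the strand of the gene, with GAGGAA in capitals, because 3 of these members were higher and 1 was lower. The regions, all on the minus strand, are chr3:106790150-106790399 (Cd53), chr11:69666171-69666420 (Cd68), chr13:37050245-37050494 (F13a1) and chr14:31168642-31168891 (Stab1).
Cd53: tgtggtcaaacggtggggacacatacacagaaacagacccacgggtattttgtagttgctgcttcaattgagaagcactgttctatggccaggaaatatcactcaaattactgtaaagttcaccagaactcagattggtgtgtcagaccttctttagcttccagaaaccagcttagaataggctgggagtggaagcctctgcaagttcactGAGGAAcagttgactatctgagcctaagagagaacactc
Cd68: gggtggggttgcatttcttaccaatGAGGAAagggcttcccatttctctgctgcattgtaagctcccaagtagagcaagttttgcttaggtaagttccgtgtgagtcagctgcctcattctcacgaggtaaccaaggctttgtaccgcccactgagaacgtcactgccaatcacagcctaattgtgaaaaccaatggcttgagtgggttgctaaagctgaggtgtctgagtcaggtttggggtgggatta
F13a1: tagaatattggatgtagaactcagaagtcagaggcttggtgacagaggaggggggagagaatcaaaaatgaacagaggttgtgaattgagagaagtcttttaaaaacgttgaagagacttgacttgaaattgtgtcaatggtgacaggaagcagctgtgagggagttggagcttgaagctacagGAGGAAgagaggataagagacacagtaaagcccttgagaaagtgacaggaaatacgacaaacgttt
Stab1: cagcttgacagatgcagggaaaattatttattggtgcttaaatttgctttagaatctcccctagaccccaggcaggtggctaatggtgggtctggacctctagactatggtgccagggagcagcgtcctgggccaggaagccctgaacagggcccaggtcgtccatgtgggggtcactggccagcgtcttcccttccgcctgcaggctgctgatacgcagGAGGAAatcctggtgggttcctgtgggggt

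In these sequences GAGGAA starts 39 bases before the start of Cd53, 225 before that of Cd68, 66 before that of F13a1 and 30 before that of Stab1. Cd53, Cd68 and F13a1, with the log2 fold changes 0.58, 0.45 and 0.66, and Stab1, at -0.56, thus share these letters while lying on opposite sides of 0. The members without a window of their symbol were Emr1, Csf1r, Msr1, Siglec1, Cd14, Tlr4, Tlr7, Tyrobp and Tmem119.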

How the data were processed

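RNA of 2 pooled eyes per library was measured in 6 libraries. The deposited table holds whole-number read counts per gene, made by the authors with TopHat, Bowtie and HTSeq on mm10, per the submitters' processing notes; no source used here gives versions or the strand setting. A second table holds the authors' edgeR results, deposited as log2 fold changes, p-values and FDR values; its sign was turned to knockout over wild type. The 2 GEO entries each stand for 3 animals, whose columns were matched by the labels.

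Genes were kept by filterByExpr by group, with a minimum count of 10 and of 15 in all libraries together. The minimum of 10 acts as a CPM cutoff at the median library size, to be met in at least 3 libraries. Genes kept were scaled by TMM and fitted in edgeR 4.0.16 (R 4.3.3) by glmQLFit and glmQLFTest. Benjamini-Hochberg adjustment was over 15796 genes. CPM uses the TMM-adjusted library size, and SE is the absolute log2 fold change over the square root of F. The 5 tally rows stayed out of library sizes: no gene 14.4% to 16.8%, ambiguous 0.417% to 0.784%, not unique 18.7% to 25.1%. The common biological coefficient of variation was 0.28. Alternatives were 2 other scalings, 2 other filters, DESeq2 1.42.0, limma-voom (limma 3.58.1), animal number as a block, the exact test of edgeR, sex, the mean of 9 cornea markers, offsets for GC content (lowess span 0.3, from GENCODE M21), and each library left out in turn.

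Members and lists were chosen with earlier results of these data known. Unadjusted p-values serve only as a limit for naming and counting genes and are not printed. Given in full were members with an unadjusted p under 0.05 or groups without overlap and the member with the highest mean CPM of each role; from each pathway list, up to 3 genes with an unadjusted p under 0.05, smallest p first, or else the gene with the highest mean CPM. List counts leave out the members. A value that falls under the rule is not reported here. Promoter letters come from RefSeq. The labels name separate animals, but p-values rest on 3 per group.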

Additional observations from a re-analysis of the deposited data

Results flagged for a closer look

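The share of alignments that the counting tool tallied as not unique, which enters no gene count, was 23.88% ± 1.08 in the knockout-labelled libraries and 19.04% ± 0.33 in the wild type (SD, n = 3 each). It is listed here because it lies outside the gene counts and stood above the level of the control libraries in all 3 knockout-labelled libraries (25.1%, 23.7% and 22.9% against 18.7%, 19.4% and 19.1%). Whether reads of members with similar genes, such as Lyz2 with Lyz1 and Fcgr2b with Fcgr3, fell in this tally was not tested.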

How the results depend on the processing

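Of 35 tested members, 21 kept their sign in every one of the 17 alternatives that tested them and 14 turned in at least 1. The CPM filter left out Timd4, which kept its sign in the 16 alternatives that tested it. Genes called went from 8 to 15 with upper-quartile factors, 22 without a low-count filter, 16 with the CPM filter, 493 with DESeq2, 13 with limma-voom, 352 with the edgeR exact test, 1 with sex as a term, 24 with the cornea markers as a term and 0 to 795 with 1 library left out (795 without knockout-labelled animal 1). Where edgeR called 0, without knockout-labelled animal 2, 1516 genes had an unadjusted p under 0.05. Members called went from 0 to 1 with DESeq2 and with the exact test (Lgals3), and to between 0 and 3 with 1 library left out (Lgals3, Stab1 and Tmem119 without knockout-labelled animal 1). The genes tested numbered 15796 with DESeq2 and with the exact test, and 16064 without knockout-labelled animal 1. Members higher at an unadjusted p under 0.05 numbered 4 to 10 and members lower 1 to 4 with 1 library left out, and 0 were lower with the cornea markers as a term, where the members' median log2 fold change was 0.28. That term turned Csf1r to 0.0196, Cd163 to 0.0693, Mrc1 to 0.28, Clec4a2 to -0.67, Tyrobp to 0.0948 and Hexdc to 0.21, and GC offsets turned Msr1 to -0.0849 and Clec4a2 to -0.16; the cause was not tested. With 1 library left out, log2 fold changes spanned 0 for Emr1 (-0.0219 to 0.20), Cd163 (-0.48 to 0.11), Mrc1 (-0.29 to 0.15), Msr1 (-0.0422 to 0.35), Fcgr1 (-0.13 to 0.73), Fcgr3 (-0.0008 to 0.19), Clec4a2 (-0.19 to 0.41), Cd14 (-0.23 to 0.20), Trem2 (-0.14 to 0.30), Spp1 (-0.12 to 0.28) and P2ry12 (-0.35 to 0.0945). With the animal number as a replicate block 1 gene was called. Same-numbered libraries correlated at -0.07, -0.07 and -0.05 and the other pairs between -0.01 and 0.08, and not every library correlated best with its own number. Values this near 0, from deviations within groups of 3, cannot show whether the numbers pair the animals. Animal 1 had Xist counts of female level in both groups. With 3 animals per group and a coefficient of variation of 0.28, the widest SEs were those of Timd4 (1.23) and Pf4 (0.56), both under 10 CPM.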

Other observations

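Dendritic and mast cells were counted beside the members. Dendritic cell markers (7 genes) summed to 15.7, 24.5 and 17.6 CPM in the knockout-labelled against 16.1, 16.9 and 15.4 CPM in the wild-type libraries. In the edgeR test 6 of the 7 had positive estimates (median log2 fold change 0.45) and 0 had an unadjusted p under 0.05. Mast cell markers summed to 71.9, 101 and 82.3 CPM against 73.0, 64.5 and 86.4 CPM, and of 6 tested 3 lay above and 3 below 0.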
